A study of Mus musculus with 6 samples.

Results

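Complement is a set of proteins that label cells, debris and microbes for uptake. The 8 genes described here are C1qa, C1qb and C1qc (the chains of the recognition molecule C1q), the central component C3, the fifth component Hc, the stabiliser Cfp (properdin) and the anaphylatoxin receptors C3ar1 and C5ar1. They were chosen by symbol, as 8 of the 32285 genes in the count matrices, and all 8 were found. Their transcripts were followed in dissociated lungs of 6 male mice through macrophages, monocytes, neutrophils, fibroblasts, alveolar type 2 (AT2) epithelial cells and endothelial cells, by mouse and by treatment. All 6 mice were hCTLA4 knock-in animals on a C57BL/6 background, in which human CTLA4 exons replace mouse exons so that the human antibody binds its target. At 12 weeks of age all 6 received bleomycin by the oropharyngeal route, 2 doses of 1.25 U/kg given 2 weeks apart. From day 21 after the second dose, 3 mice received an IgG1 isotype antibody and 3 received ipilimumab, an antibody against CTLA4. Each was given at 5 mg/kg into the peritoneum over 4.5 weeks. Both groups therefore carry the knock-in and the injury, and no uninjured mouse was analysed here. Each library is the right lung of 1 mouse, so the spread between libraries is a spread between animals.

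C1q binds antibody complexes and dying cells and starts the classical pathway. All pathways meet at C3, whose cleavage leaves a tag for phagocytes and releases C3a, the ligand of C3ar1, a receptor of myeloid cells. Properdin stabilises the convertase of the alternative pathway, and cleavage of the fifth component releases C5a, which draws neutrophils through C5ar1. The liver is the main source of many plasma components, whereas C1q comes mainly from tissue macrophages, and lung cells also make several components locally.

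The 6 libraries held between 37666042 and 48612412 unique molecular identifiers (UMIs, 1 per captured transcript), and 24259 cells were used, 3268 to 4349 per mouse. The complement genes were left out when cells were clustered, and cells were named from markers of each type, so every gate name means cells like that type by its markers. Ipilimumab replicate 1 stood apart, with 22056 barcodes of at least 100 UMIs against 4834 to 6230 in the other mice and with 78.9% of its UMIs in called cells against 92.4% to 93.1%. Any pair of libraries shared 0 to 8 barcodes of called cells. Free RNA was estimated in B cells, which make little complement, from markers of neutrophils, alveolar macrophages, AT2 and airway secretory cells. The estimate was 133 to 434 UMIs per B cell. AT2 markers summed to 3.45 UMIs per 10000 in B cells, against 0.56 in neutrophils and 0.592 in alveolar macrophages. Any such transcripts that B cells make themselves would count as free RNA, and their part in the estimate was not tested. Levels are given as counts per 1000000 (CPM), the UMIs of the gene per 1000000 UMIs of the gate in that mouse, and the method reads transcript ends only, so gene length does not enter. The gates held 2708 alveolar macrophages, 92 interstitial macrophages, 488 classical and 596 nonclassical monocytes, 1840 neutrophils, 475 fibroblasts, 228 AT2 cells and 1100 endothelial cells, and counts are small where cells are few.

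The C1q genes lie side by side on the minus strand of chromosome 4 (build GRCm38), in the order C1qb (chr4:136880129-136886187), C1qc (chr4:136889804-136893065) and C1qa (chr4:136895917-136898803), and no other annotated gene lies in that span of 18675 bases. The other 5 genes are scattered: Hc at chr2:34983331-35061438, C3ar1 at chr6:122847138-122856161, C5ar1 at chr7:16246743-16259540, C3 at chr17:57203970-57228136 and Cfp at chrX:20925454-20931555, all on the minus strand. RefSeq promoter windows on GRCm38.p6 were matched for 7 of the 8 genes, the exception being C1qa. A motif search used GAGGAA, the core bound by the myeloid factor PU.1, and TTGCNNAA, the paired half-sites of C/EBP factors, on both strands, and the matches of these motifs do not overlap. Of 32851 mouse promoter windows of the same length, 7639 (23.25%) held the first motif and 3142 (9.56%) held the second. Among the 7 windows, the first was found in C1qb and C1qc and the second in C3, so these 3 stretches, upstream of the annotated transcripts, are printed to show where the letters lie, with the match in capitals.
C1qb, chr4:136886201-136886450, minus strand: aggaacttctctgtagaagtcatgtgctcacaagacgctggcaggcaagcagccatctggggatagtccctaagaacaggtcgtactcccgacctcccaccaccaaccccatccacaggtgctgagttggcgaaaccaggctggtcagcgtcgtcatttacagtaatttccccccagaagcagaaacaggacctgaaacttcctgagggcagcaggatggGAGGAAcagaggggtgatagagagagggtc
C1qc, chr4:136893066-136893164, minus strand: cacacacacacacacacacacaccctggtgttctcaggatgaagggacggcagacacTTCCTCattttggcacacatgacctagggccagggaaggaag
C3, chr17:57228137-57228386, minus strand: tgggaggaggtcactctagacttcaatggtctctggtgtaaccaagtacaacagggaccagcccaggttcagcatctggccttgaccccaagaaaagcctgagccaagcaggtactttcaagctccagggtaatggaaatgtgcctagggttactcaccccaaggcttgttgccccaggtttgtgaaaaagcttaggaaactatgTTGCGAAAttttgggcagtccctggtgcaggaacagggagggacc
The C1qb match lies at -30 to -25 from the RefSeq start and the C3 match at -45 to -38, whereas the C1qc match is on the opposite strand at -193 to -188. These are matches of letters in a window and no binding was measured.

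C1q transcripts were concentrated in a very small gate. The 92 interstitial macrophages made up 0.379% of the cells used and held 80.4% of 5470 C1qa UMIs, 75.8% of 5726 C1qb UMIs and 80.5% of 2955 C1qc UMIs. The C1qa level in this gate was 1707, 2893 and 1726 CPM in the IgG1 mice and 3022, 3009 and 3444 CPM in the ipilimumab mice, a mean of 2633 ± 735 CPM (SD, n = 6). C1qb measured 1805, 2874 and 1438 CPM under IgG1 and 3545, 2688 and 3282 CPM under ipilimumab (mean 2605 ± 827). C1qc measured 843, 1562 and 1138 CPM under IgG1 and 1724, 1576 and 1856 CPM under ipilimumab (mean 1449.7 ± 383). The lowest mouse of this gate lay above the highest mouse of every other gate for all 3 genes. IgG1 replicate 3 gave 7 of these cells, so its values rest on 270, 225 and 178 UMIs.

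Most of the cells carried transcripts of all 3 chains. Of the 92 interstitial macrophages, 82 had UMIs of all 3 chains and 3 had none. The median cell held 36 C1qa, 41 C1qb and 20.5 C1qc UMIs, and the highest held 306, 249 and 163. A UMI was seen in 93.5% (C1qa), 96.7% (C1qb) and 91.3% (C1qc) of the cells at a median depth of 15209 UMIs. In B cells the shares were 0.0927%, 0.185% and 0.0348% at a median depth of 5598 UMIs. With every cell thinned to 1000 UMIs the interstitial shares were 78.3%, 76.1% and 62.0%, and those of B cells 0.0117%, 0.035% and 0%. C1qb UMIs per C1qa UMI ranged from 0.833 to 1.17 over the 6 mice, and C1qc UMIs per C1qa UMI from 0.494 to 0.659.

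The next gate, type 2 conventional dendritic cells (cDC2), averaged 103 ± 118 CPM for C1qa, and its mice spanned 3.06 to 316 CPM. These 246 cells included 16 with all 3 chains, and 214 with none. In the whole data set 131 cells carried all 3 chains, of which 82 were interstitial macrophages, 17 alveolar macrophages, 16 cDC2, 7 unnamed, 4 cycling and 3 endothelial. In IgG1 replicate 3 the cycling gate held 46.0% of the C1qa UMIs of that mouse, and 1 cell of that gate carried all 3 chains. In ipilimumab replicate 1, 1 fibroblast held 46 of the 47 C1qa UMIs of the fibroblast gate, and in IgG1 replicate 2, 1 endothelial cell held 21 of the 22 of the endothelial gate. Whether such cells are pairs of cells in 1 droplet was not tested.

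Alveolar macrophages, the resident phagocytes of the airspace, had a C1qa mean of 2.49 ± 1.90 CPM, C1qb of 6.39 ± 3.10 CPM and C1qc of 2.23 ± 1.47 CPM. B cells measured 0.162, 0.309 and 0.0505 CPM. C1qb UMIs per C1qa UMI were 2.39 in alveolar macrophages against 0.988 in interstitial macrophages, from 371 and 155 UMIs in the former. Unnamed clusters of 138, 117, 108 and 76 cells scored highest as alveolar macrophages but are not in that gate. With all mice pooled they had 37.5, 1.09, 13.2 and 1.44 CPM of C1qb. Their C3ar1 was 11.1, 2.90, 8.20 and 2.41 CPM, and their C5ar1 131, 175, 164 and 166 CPM. Neutrophils, nonclassical monocytes and AT2 cells held 0 to 2 UMIs of each C1q gene. Over the 16 classes with at least 50 cells, the pattern of each C1q gene was most like the other 2 C1q genes (Pearson r of log2(CPM + 10) from 0.9943 to 0.9955), followed by Pf4, the platelet factor 4 gene (0.9623 to 0.9828). Pf4 was itself among the markers that named the interstitial macrophages.

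**Figure D1:**
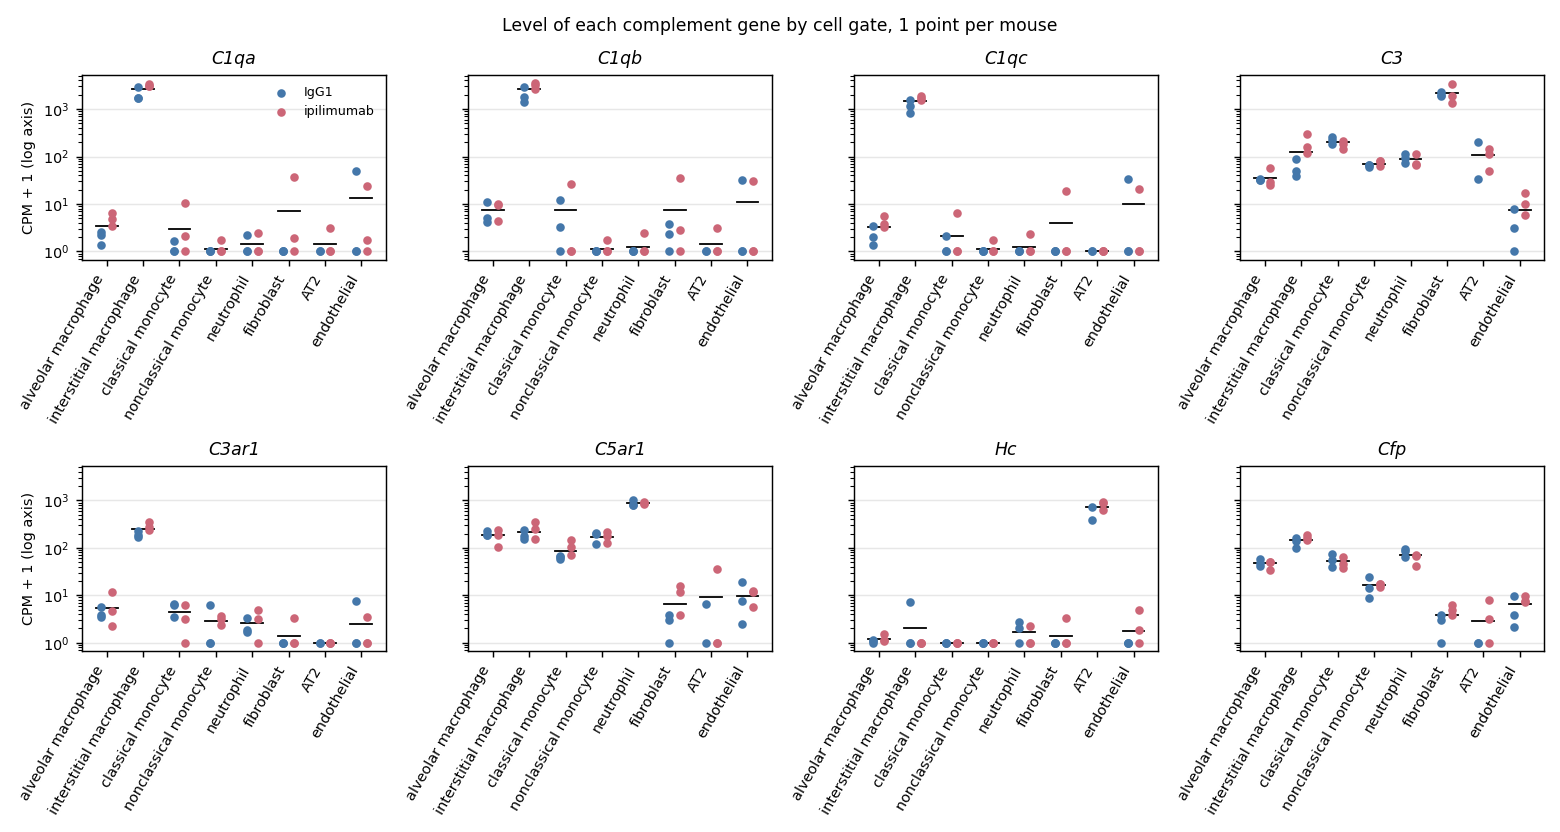
Level of the 8 complement genes in 8 gates (CPM + 1, log axis), with 1 point per mouse and a line at the mean. C1qa, C1qb, C1qc and C3ar1 peak in interstitial macrophages, C3 in fibroblasts, C5ar1 in neutrophils and Hc in AT2 cells, while Cfp is spread over myeloid gates.

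C3 was mainly a fibroblast transcript. The 475 fibroblasts held 63.6% of 15136 C3 UMIs, from 46.7% to 73.3% by mouse. Their level was 1938, 2319 and 1887 CPM in the IgG1 mice and 1321, 1902 and 3419 CPM in the ipilimumab mice (mean 2131 ± 707, n = 6). The ipilimumab mice included both the lowest and the highest value. C3 was read in 79.6% of the fibroblasts, against 0.521% of B cells, and no single cell held more than 24.6% of the C3 UMIs of a mouse's fibroblasts. The lowest fibroblast value lay above the highest value of every other gate. Unnamed clusters of 56, 32 and 27 cells scored highest as fibroblasts but are not in that gate, its share of cells or its tests. With all mice pooled they had 140, 3491 and 1284 CPM of C3. Of their cells, 44, 32 and 27 came from ipilimumab replicate 1.

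Classical monocytes, the circulating precursors of many tissue macrophages, came next among the gates followed, at 260.1, 186 and 222 CPM under IgG1 and 179.6, 144 and 207 CPM under ipilimumab (mean 199.6 ± 39.7). C3 was read in 76.8% of them and in 16.2% after thinning. Interstitial macrophages averaged 125 ± 96.7 CPM, AT2 cells 108 ± 68.3 CPM (n = 5), neutrophils 87.7 ± 22.2 CPM and nonclassical monocytes 68.5 ± 8.84 CPM, and the ranges of these neighbours overlap. Alveolar macrophages averaged 33.6 ± 10.8 CPM, below every nonclassical monocyte value, and because they were numerous they held 13.2% of the C3 UMIs. Endothelial cells measured 6.42 ± 5.64 CPM. The 25 lymphatic endothelial cells held 35 C3 UMIs, too few for a level by mouse. The genes with patterns most like C3 were Creb3l1 (r = 0.86), C1qtnf12 (0.84) and Tnfaip6 (0.83), each highest in fibroblasts.

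Hc was close to a single gate. AT2 cells, which make surfactant, held 95.2% of 1271 Hc UMIs. Under IgG1 the level was 390 CPM in replicate 1 and 734 CPM in replicate 2, and under ipilimumab it was 887, 935 and 633 CPM (mean 716 ± 218, n = 5). IgG1 replicate 3 gave 2 cells and 0 Hc UMIs in this gate and was left out of the mean and the test. No other of the 8 gates exceeded a mean of 1.07 CPM, and classical and nonclassical monocytes held 0 Hc UMIs in 488 and 596 cells. A count of 0 allows up to 3 UMIs, for counting error only.

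The AT2 gate mixed cells. Of its 228 cells, 204 held more UMIs of AT2 markers than of airway secretory markers, and these 204 held all 1210 Hc UMIs of the gate, in 97 cells (47.5%). The other 24 cells held 0 Hc UMIs and 73 C3 UMIs. In the 204 cells alone Hc averaged 1120.5 ± 521 CPM over 5 mice, from 747 to 2027 CPM. Ipilimumab replicate 1 gave 172 of the 228 cells, and its AT2-marker cells were shallow, with a median of 1008.5 UMIs against 10714 to 25901 in the other mice. The closest patterns to Hc were those of Ociad2, Egfl6 and Gm39094 (r from 0.994 to 0.995), all highest in AT2 cells.

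Cfp had no dominant gate. Interstitial macrophages measured 140, 157 and 95.9 CPM under IgG1 and 145, 159 and 186 CPM under ipilimumab (mean 147 ± 29.6). The cDC2 averaged 119 ± 26.8 CPM, neutrophils 70.04 ± 19.1 CPM, classical monocytes 51.6 ± 14.5 CPM, alveolar macrophages 45.9 ± 8.15 CPM and nonclassical monocytes 15.1 ± 5.20 CPM, and each overlaps its neighbour in this order except where alveolar macrophages meet nonclassical monocytes. Alveolar macrophages, being numerous, held 45.4% of 5634 Cfp UMIs. B cells had 5.46 ± 1.89 CPM and a UMI in 2.42% of cells, against 52.8% of alveolar macrophages. Fibroblasts had 2.83 ± 1.80 CPM, below B cells. The nearest patterns were Aph1c and Gm46224 (both 0.92) and Gm31718 (0.91).

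**Figure D2:**
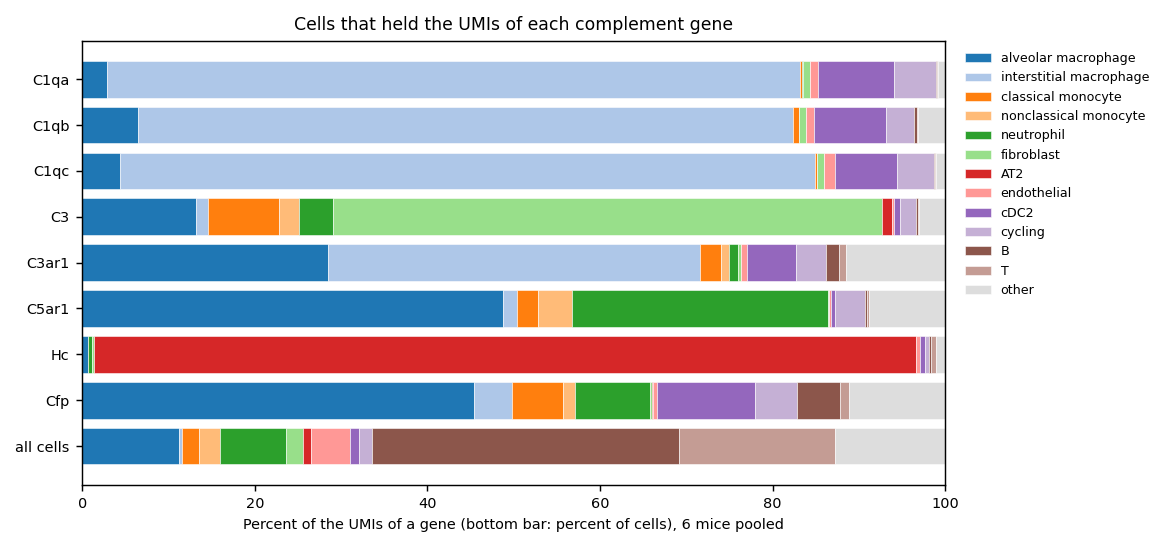
Percent of all UMIs of each complement gene that came from each gate, with the percent of all cells in the bottom bar. Interstitial macrophages are 0.379% of cells and give 80.4% of C1qa UMIs, fibroblasts give 63.6% of C3 UMIs and AT2 cells 95.2% of Hc UMIs.

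The receptors had different homes. Among the 8 gates C3ar1 was highest in interstitial macrophages, at 189, 227 and 166 CPM under IgG1 and 242, 279 and 355 CPM under ipilimumab (mean 243 ± 67.6), and a UMI was seen in 88.0% of these cells. The cDC2 were next, at 12.2 ± 8.38 CPM, and did not overlap them. Alveolar macrophages averaged 4.30 ± 3.47 CPM, and fibroblasts, endothelial cells and AT2 cells held 3, 6 and 0 C3ar1 UMIs. A group of 10 basophil-like or mast-like cells held 29 C3ar1 UMIs, 3.05% of the 951 in the data set, which is 561 CPM with all mice pooled, above the interstitial mean. With 1 to 4 such cells per mouse they were too few for a level by mouse. The patterns most like C3ar1 were Pf4 (0.99) and the chemokine genes Ccl12 (0.99) and Cxcl13 (0.98).

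C5ar1 was a neutrophil transcript first. Neutrophils measured 816, 809.8 and 1001 CPM under IgG1 and 927, 862 and 840.3 CPM under ipilimumab (mean 876 ± 74.5), and a UMI was seen in 88.1% of cells, or 55.1% after thinning. Interstitial macrophages (mean 219.6 ± 77.6 CPM), alveolar macrophages (186 ± 47.5 CPM) and nonclassical monocytes (172 ± 41.1 CPM) followed with overlapping ranges. Classical monocytes averaged 83.7 ± 34.2 CPM, with a range that overlaps that of the nonclassical monocytes. The nonclassical gate also held neutrophil markers, at 16.1 to 76.5 UMIs per 10000 by mouse against 26.9 to 29.1 for its own markers, with 5 of 8 neutrophil markers in at least 10% of cells and none at 0. A cluster of 76 of its 596 cells, with Hdc, Acod1 and Il1r2 among its leading genes, had 343 CPM of C5ar1 against 118 CPM in the other 520 cells. The part of these markers in the C5ar1 level was not tested. Alveolar macrophages held 48.7% and neutrophils 29.6% of 20640 C5ar1 UMIs, the reverse of the order of their levels. B cells averaged 0.846 CPM, with a UMI in 0.487% of cells. The closest patterns were Pilra (0.98), Ccr1 (0.965) and Clec4d (0.96), which also peaked in neutrophils.

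Of the 92 interstitial macrophages, 71 held both receptors, and 64 held both receptors together with all 3 C1q chains. The median cell had 4 C3ar1 and 3 C5ar1 UMIs.

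Within the alveolar macrophages, the receptors and Cfp divided along clusters. Clusters led by Mmp12, the macrophage elastase gene, together with Gpnmb, Inhba and Fstl1 held 242 of the 2708 cells. They made up 36.2% of the alveolar macrophages of ipilimumab replicate 3 and 1.61% to 5.41% of those of the other 5 mice. C5ar1 was 9.95 CPM in these clusters and 201 CPM in the other alveolar macrophages, and a UMI was seen in 16.5% against 88.5% of cells. C3ar1 ran the other way, at 24.2 against 1.83 CPM, and in the pooled cells so did C3 at 68.1 against 30.03 CPM and C1qa at 15.1 against 0.865 CPM. Of the 155 C1qa UMIs of the alveolar macrophages, 112 were in the 242 cells. Cfp was 20.03 CPM in them and 48.4 CPM in the rest. C5ar1 and Cfp were lower and C3ar1 was higher in the Mmp12-led clusters of all 6 mice, from 4 to 20 such cells in 5 of them. The C3ar1 value of these clusters was 1 UMI in IgG1 replicate 3 and in ipilimumab replicate 1, and the Cfp value was 1 UMI in the latter. The pooled C3 value rests on ipilimumab replicate 3, which gave 455 of the 507 C3 UMIs of these clusters, and C3 was lower in them in 3 of the 6 mice, IgG1 replicate 3 and ipilimumab replicates 1 and 2. C1qa was 0 against 1.55 CPM in IgG1 replicate 3 and higher in the clusters of the other 5 mice. In IgG1 replicate 2 it rested on 1 UMI in the clusters (1.45 against 1.21 CPM). C1qb was 19.5 against 4.55 CPM in the pooled cells. It was lower in the clusters of IgG1 replicate 2 (1.45 against 4.34 CPM) and higher in those of the other 5 mice, from 1 UMI in IgG1 replicate 3. The cells outside the Mmp12-led clusters were not uniform. A cluster of 145 of them had, with all mice pooled, 48.1 CPM of C1qb, 9.96 CPM of C1qa and 13.6 CPM of C3ar1. The pooled median depth was 31274.5 UMIs against 19975.5 UMIs, but the Mmp12-led cells were the shallower ones in ipilimumab replicate 1 (1732 against 19530.0 UMIs) and in IgG1 replicate 3 (21707 against 23745.5 UMIs), and the part of depth was not tested. These are descriptions of clusters, with no test.

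**Figure D3:**
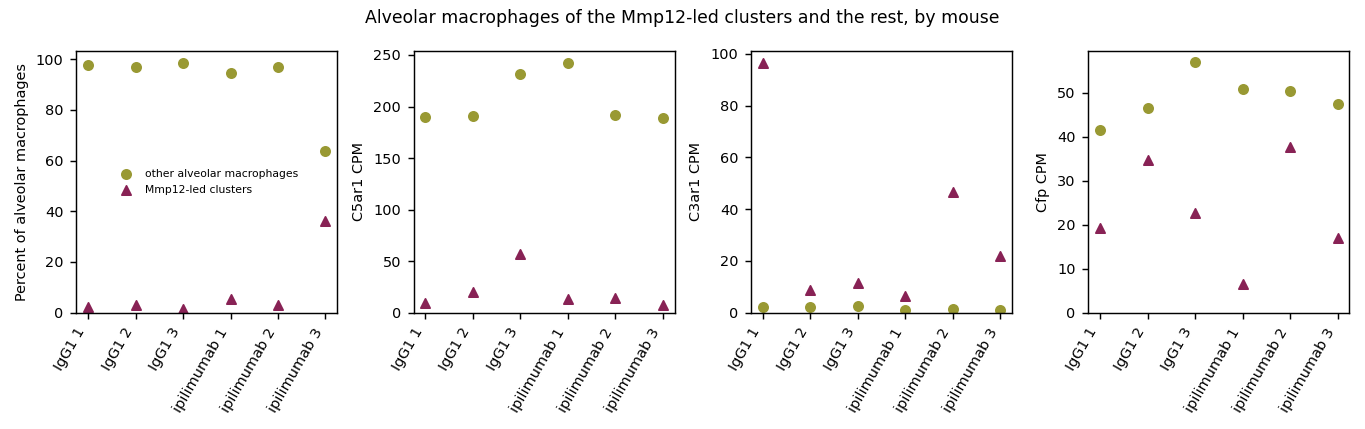
Percent of alveolar macrophages in the Mmp12-led clusters by mouse, and the CPM of C5ar1, C3ar1 and Cfp in those clusters and in the other alveolar macrophages. Ipilimumab replicate 3 has 36.2% of its alveolar macrophages in the Mmp12-led clusters, and C5ar1 is lower in those clusters in every mouse.

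The treatment comparison asked whether any of the 8 genes differed between ipilimumab and IgG1 in each gate, over 3 mice against 3. Counts were summed by mouse and gate and tested with edgeR's quasi-likelihood test over all genes that passed a low-count filter, and a gene was called at a Benjamini-Hochberg adjusted p under 0.05 with an absolute log2 fold change over 0.3. None of the 8 was called in any gate, nor was any other gene, so the background of called genes was 0% in each. By unadjusted p under 0.05, edgeR counted 519 of 11947 genes in alveolar macrophages, 209 of 4537 in interstitial macrophages, 342 of 7161 in classical monocytes, 334 of 6930 in nonclassical monocytes, 227 of 5227 in neutrophils, 532 of 7701 in fibroblasts, 442 of 4857 in AT2 cells and 669 of 8343 in endothelial cells. DESeq2 called 1, 2, 1, 0, 0, 9, 32 and 26 genes in the same order, and none was one of the 8. An exact permutation test of 3 mice against 3 cannot go below p = 0.1, nor below 0.2 for 2 against 3.

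In interstitial macrophages all 7 genes tested had an ipilimumab mean above the IgG1 mean, with a median log2 fold change of 0.62 against 0.01 over all 4537 genes, and none passed the test. The log2 fold changes were 0.62 ± 0.23 (SE) for C1qa, 0.68 ± 0.26 for C1qb, 0.59 ± 0.24 for C1qc, 0.62 ± 0.26 for C3ar1, 0.48 ± 0.34 for C5ar1 and 0.34 ± 0.28 for Cfp, each with an adjusted p of 0.982 by edgeR. For 4 of the 7 (C1qa, C1qc, C3 and C3ar1) every ipilimumab mouse was above every IgG1 mouse, where 4.1% of all genes tested in this gate did the same. The gap is narrow for C1qa, where the highest IgG1 mouse had 2893 CPM and the lowest ipilimumab mouse 3009 CPM. The direction also depended on how the gate was drawn. With gates drawn from marker counts in place of clusters, the log2 fold changes were -0.080 for C1qa, -0.011 for C1qb and -0.10 for C1qc, and at a finer clustering C1qa was -0.078. The median depth of these cells was 12951 UMIs under IgG1 and 16629.5 under ipilimumab, and its part in the result was not tested. The interstitial markers summed to 11.6 to 15.1 UMIs per 10000 in the IgG1 mice and 10.6 to 29.8 in the ipilimumab mice. None of the 8 markers was at 0. Airway secretory markers, of which 4 of 5 were at 0 in this gate, summed to 0 to 0.128 UMIs per 10000 in the IgG1 mice and 0.232 to 0.357 in the ipilimumab mice, and their part in the result was not tested.

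C3 had the highest fold change of this gate among the 8 genes, at log2 1.70 ± 0.45 (edgeR adjusted p = 0.885). Its counts were 18, 28 and 6 UMIs in the IgG1 mice and 32, 93 and 35 UMIs in the ipilimumab mice. A single cell gave 7, 16 and 3 of the UMIs in the IgG1 mice and 23, 81 and 22 in the ipilimumab mice. The C3 UMIs of that cell were then left out, with all UMIs of the gate kept as the total. C3 was then at 29.7, 38.4 and 19.2 CPM against 43.6, 38.9 and 43.1 CPM. C3 was read in 29.7% of cells under IgG1 and 25.0% under ipilimumab (exact permutation p = 0.6, n = 3 and 3). C3ar1 was read in 82.8% and 95.3% of cells (exact p = 0.1, n = 3 and 3), and in 18.7% and 26.4% after thinning (exact p = 0.7).

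**Figure D4:**
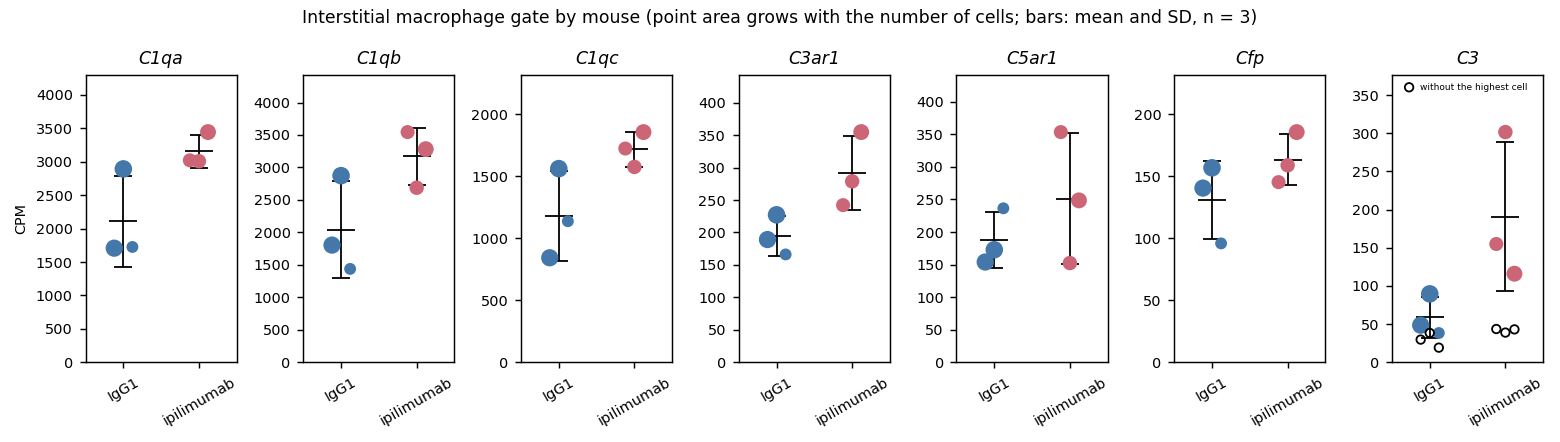
CPM of 7 complement genes in the interstitial macrophages of each mouse, with point area growing with the number of cells and bars for mean and SD (n = 3). The ipilimumab mice sit above the IgG1 mice for C1qa, C1qc, C3ar1 and C3. The open circles show C3 without the C3 UMIs of its highest cell, over all UMIs of the gate, at 19.2 to 38.4 against 38.9 to 43.6 CPM.

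In alveolar macrophages, 7 genes were tested, 5 lay above 0 and none was called. C1qa had 0.363, 1.22 and 1.53 CPM under IgG1 and 2.52, 3.77 and 5.54 CPM under ipilimumab, from 3, 16 and 9 UMIs against 14, 46 and 67 UMIs. This is a log2 fold change of 1.99 ± 0.49 (adjusted p = 0.883). C1qa was the one gene of the 7 whose groups did not overlap, where 5.27% of all genes tested had every ipilimumab mouse higher. C1qc had a log2 fold change of 1.5 ± 0.57 and C1qb of 0.36 ± 0.48. Outside the Mmp12-led clusters, C1qa was 0, 1.21 and 1.55 CPM under IgG1 and 0, 1.20 and 0.787 CPM under ipilimumab, so the groups overlapped. C1qc outside those clusters was 0.124, 1.04 and 2.41 CPM under IgG1 and 0, 0.601 and 0.63 CPM under ipilimumab. Airway secretory markers summed to 0.081 to 0.15 UMIs per 10000 in the IgG1 mice and 0.293 to 0.408 in the ipilimumab mice of this gate, and their part in the result was not tested. For C5ar1 the levels were 185, 182 and 229 CPM under IgG1 and 236, 183 and 103 CPM under ipilimumab, a log2 fold change of -0.20 ± 0.25 (adjusted p = 0.905). The low value is ipilimumab replicate 3, the mouse with the Mmp12-led cells, and without those clusters its C5ar1 level was 188 CPM and the log2 fold change 0.00. C3ar1, at log2 0.80 ± 0.65 with all cells, was -0.84 without those clusters and -0.31 without ipilimumab replicate 3. C3 (0.24 ± 0.29) turned to -0.13 and -0.25 in the same 2 fits.

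A test of the difference between these gates, interstitial minus alveolar effect, called 1 of 10763 genes and 384 at an unadjusted p under 0.05. The called gene was not one of the 8. The difference was -1.35 ± 0.41 log2 units for C1qa and 1.56 ± 0.52 for C3, both with an adjusted p of 1 by edgeR. Without ipilimumab replicate 3 the C3 difference was 2.23 ± 0.44 (adjusted p = 0.045 by edgeR), 1 of 3 genes called among 11154. In the mice kept, 1 cell gave 7 of 18, 16 of 28 and 3 of 6 interstitial C3 UMIs under IgG1. Under ipilimumab 1 cell gave 23 of 32 and 81 of 93, and the part of these cells in the difference was not tested. The other differences lay between -0.91 and 0.72.

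In classical monocytes C5ar1 had 66.7, 56.04 and 62.0 CPM under IgG1 and 101, 70.4 and 146 CPM under ipilimumab. The groups did not overlap, where 3.94% of all genes tested had every ipilimumab mouse higher, and the log2 fold change was 0.84 ± 0.23 (edgeR adjusted p = 0.753). A UMI was seen in 31.2% of cells under IgG1 and 47.6% under ipilimumab (exact p = 0.1, n = 3 and 3), but in 7.5% and 6.98% after thinning to 1000 UMIs (exact p = 0.9). C3 had a log2 fold change of -0.29 ± 0.17 and Cfp of -0.20 ± 0.26 in this gate. Airway secretory markers summed to 0.056 to 0.097 UMIs per 10000 in the IgG1 mice and 0.237 to 0.904 in the ipilimumab mice of this gate, and their part in the result was not tested. The same split of these markers was seen in other gates and in B cells. It was 0.024 to 0.173 against 0.377 to 1.331 in nonclassical monocytes and 0.048 to 0.232 against 0.563 to 2.385 in neutrophils. Endothelial cells had 0.1 to 0.267 against 0.447 to 2.095, and B cells 0.04 to 0.139 against 0.288 to 1.601. In fibroblasts the ranges overlapped. In nonclassical monocytes C3, C5ar1 and Cfp were at 0.23 ± 0.20, 0.00 ± 0.26 and 0.03 ± 0.40, and the neutrophil markers of this gate summed to 25.5 to 76.5 UMIs per 10000 in the IgG1 mice and 16.1 to 56.9 in the ipilimumab mice. In neutrophils they were at -0.16 ± 0.24, -0.02 ± 0.13 and -0.45 ± 0.23. The standard error of 0.13 for C5ar1 in neutrophils is the smallest among the 8 genes in any gate.

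In fibroblasts only C3 passed the low-count filter, with a log2 fold change of 0.12 ± 0.30 (edgeR adjusted p = 0.96). The sign rests on ipilimumab replicate 3, without which it was -0.39. C3 was read in 77.1% of fibroblasts under IgG1 and 82.1% under ipilimumab (exact p = 0.5, n = 3 and 3). The fibroblast markers summed to 179 to 199 UMIs per 10000 in the IgG1 mice and 111 to 198 in the ipilimumab mice. Mesothelial cell markers, of which none was at 0, summed to 0.013 to 0.061 and 0.115 to 3.172. AT2 markers, with overlapping ranges, summed to 0.27 to 0.547 and 0.374 to 7.605. The part of these markers in the result was not tested.

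In AT2 cells Hc had a log2 fold change of 0.56 ± 0.28 and C3 of -0.32 ± 0.81 over 2 mice against 3 (edgeR adjusted p = 0.633 and 0.97). Without the 24 cells that did not hold more AT2 than airway secretory marker UMIs, the C3 value was 2.06. The marker sums of this gate cover all mice, including IgG1 replicate 3, whose 2 cells were left out of the fit. Airway secretory markers ranged from 0.11 to 5798 UMIs per 10000 under IgG1, the highest in that mouse, and from 59.5 to 2960.4 under ipilimumab. Endothelial markers, of which none was at 0, summed to 0 to 0.396 under IgG1 and 4.52 to 8.59 under ipilimumab, and T cell markers, of which none was at 0, to 0 to 0.057 and 0.175 to 0.805. Their part in the result was not tested. A single cell gave 44 of 69 and 108 of 133 Hc UMIs in the IgG1 mice, and 91 of 450, 93 of 267 and 94 of 291 in the ipilimumab mice. The Hc UMIs of that cell were then left out, with all UMIs of the gate kept as the total. Hc was then at 141 and 138 CPM against 708, 609 and 428 CPM. In these values the groups, which overlap with all cells, did not overlap. The UMIs left out were 63.8% and 81.2% of the Hc UMIs under IgG1 and 20.2%, 34.8% and 32.3% under ipilimumab. The share of all genes that separate under the same step was not computed. The cell left out was 1 of 3 and 1 of 5 cells with Hc under IgG1, and 1 of 78, 6 and 5 under ipilimumab. The difference in these values was not tested. Hc was read in 31.7% of cells under IgG1 and 40.5% under ipilimumab (exact p = 0.4, n = 2 and 3). In endothelial cells none of the 8 passed the filter.

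In nonclassical monocytes, neutrophils, fibroblasts and AT2 cells, 3, 3, 1 and 2 of the 8 genes were tested, and the groups overlapped for each of them. Of all genes tested there, 5.67%, 5.99%, 6.43% and 10.2%, and 6.48% in endothelial cells, had every ipilimumab mouse above every IgG1 mouse. In no gate was any of the 8 that was tested there lower in every ipilimumab mouse. Of all genes tested, this was the case for 4.5% in alveolar macrophages, 5.77% in interstitial macrophages, 5.38% in classical monocytes, 4.31% in nonclassical monocytes, 3.62% in neutrophils, 5.75% in fibroblasts, 8.03% in AT2 cells, 8.11% in endothelial cells and 2.12% in all cells summed.

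**Figure D5:**
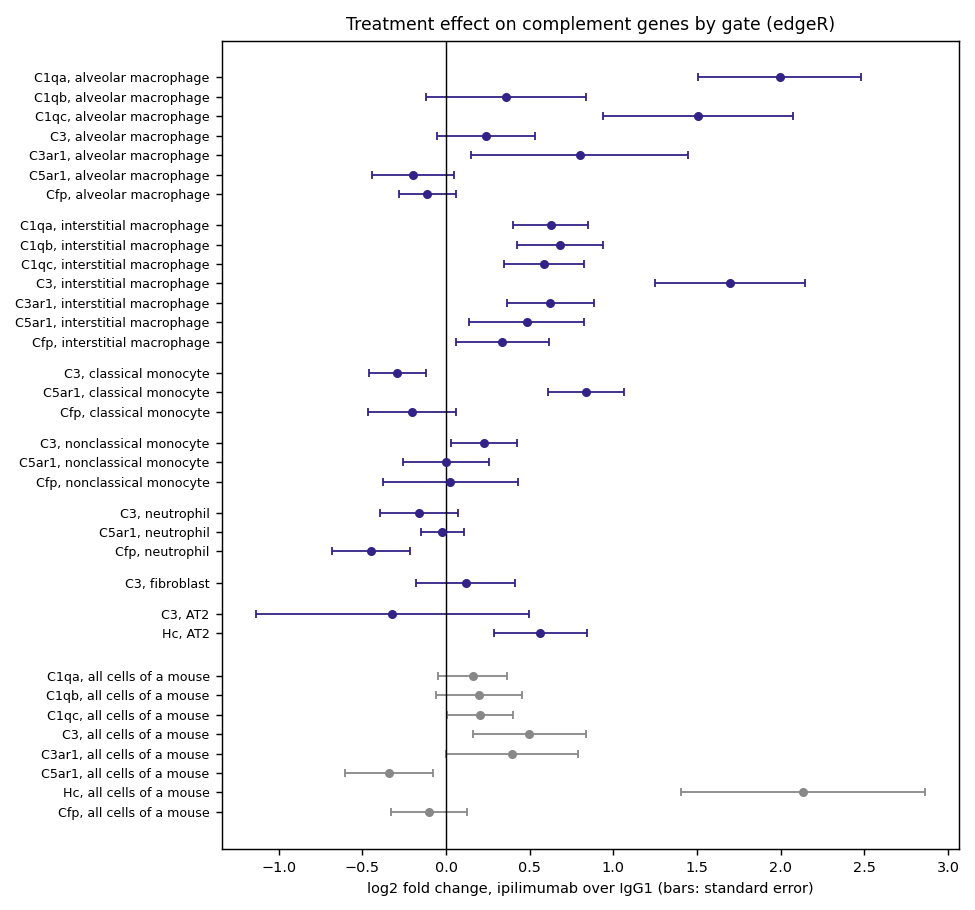
Log2 fold change of ipilimumab over IgG1 for each complement gene in each gate where it was tested, with bars for the standard error and grey for all cells of a mouse summed. None is called, and the points furthest from 0 are Hc in all cells (2.13), C1qa in alveolar macrophages (1.99) and C3 in interstitial macrophages (1.70).

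Summed over all cells of a mouse, the 8 genes again gave no call among 17425 genes (843 at an unadjusted p under 0.05 by edgeR, and 38 called by DESeq2, none of the 8). In such sums fewer cells of a type and less RNA per cell cannot be told apart. Hc had 2.09, 3.45 and 0.243 CPM under IgG1 and 13.3, 6.66 and 7.20 CPM under ipilimumab, a log2 fold change of 2.13 ± 0.73 (edgeR adjusted p = 0.918). It was the one gene of the 8 whose groups did not overlap, where 7.33% of all genes tested had every ipilimumab mouse higher. AT2 cells made up 0.215% of cells under IgG1 and 1.56% under ipilimumab (exact p = 0.2, n = 3 and 3). The ipilimumab share rests on replicate 1, at 3.95% against 0.350% and 0.369% in the others, and without it the mean was 0.359% (exact p = 0.4, n = 3 and 2). With the UMI threshold alone the shares were 0.155% and 0.364% (exact p = 0.1, n = 3 and 3). The 466 Hc UMIs of ipilimumab replicate 1 came with its 172 AT2 cells. The other 7 genes lay between -0.34 ± 0.26 (C5ar1) and 0.50 ± 0.34 (C3). C5ar1 in all cells was 80.2, 134 and 81.003 CPM under IgG1 and 81.2, 97.1 and 63.4 CPM under ipilimumab. IgG1 replicate 2, the highest, gave 723 of the 1840 neutrophils.

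None of the 8 gates differed in its share of cells past an exact permutation test, which at this size cannot pass a threshold of 0.05. Interstitial macrophages were 0.406% ± 0.167 of cells under IgG1 and 0.340% ± 0.0724 under ipilimumab (exact p = 0.6, n = 3 and 3). Neutrophils were 9.91% ± 6.25 and 5.05% ± 0.661 (exact p = 0.2), fibroblasts 1.6% ± 0.931 and 2.37% ± 0.825 (exact p = 0.3), and alveolar macrophages 10.9% ± 4.26 and 11.2% ± 3.33 (exact p = 0.9). Over the 8 gates the p-values ranged from 0.2 to 0.9 before any adjustment.

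A list of 43 other complement genes shows where the rest of the cascade was read. Of these, 21 reached 10 CPM in at least 1 of the 8 gates and 22 did not, among them Cfd, C8a, C8b, C9 and Vsig4, and the ones named here were picked after their values were seen. Fibroblasts were the highest gate for 10 of the 21. They included the C1 inhibitor Serping1 (2150 ± 362 CPM, n = 6), C4b (918 ± 226 CPM) and the C1 protease gene C1s1 (489 ± 81.7 CPM), which cleaves C4 and C2. The partner protease C1ra (244 ± 45.2 CPM), C2 (118 ± 28.2 CPM), the alternative-pathway protease Cfb (212 ± 46.05 CPM) and the terminal component C7 (449 ± 97.9 CPM) also peaked there. The C1q chains were therefore highest in interstitial macrophages, and the C1r and C1s proteases that bind them in fibroblasts. Endothelial cells were highest for Cd93, Cr1l, Cd46 and Masp1, AT2 cells for Clu, C6 and Cd55, and neutrophils for Itgam (667 ± 97.9 CPM) and the second C5a receptor C5ar2 (37.1 ± 10.7 CPM). Itgax was highest in alveolar macrophages and Itgb2 in nonclassical monocytes.

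None of the 43 was called between treatments by edgeR in any gate. Between 3 (AT2) and 14 (alveolar macrophages) were tested per gate, and 29 in all cells summed. Of those 29, 18 lay above 0, with a median log2 fold change of 0.19 against -0.01 over all genes. In interstitial macrophages 3 of 7 lay above 0, with a median of -0.05 against 0.01. One value there was large: Colec12, a collectin receptor gene, at log2 -5.54 ± 0.96 (edgeR adjusted p = 0.337), named after its value was seen. It rests on 100 UMIs, with mice from 0 to 294 CPM, and a fitted value with mice at 0 is no measure of the fold. It was called by DESeq2 (adjusted p = 0.00281), whereas with marker-based gates it was at 0.38 (edgeR adjusted p = 0.963).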

How the data were processed

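The data are single-cell libraries (10x Chromium 3' chemistry) of the right lungs of 6 mice. The authors aligned reads to mm10 with Cell Ranger (7.0.0 in the submitters' processing notes) and deposited whole-number UMI counts for every barcode, empty droplets included. The methods also describe a correction for free RNA, but the deposited counts are uncorrected, and no authors' cell annotation was used here.

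Cells were called in Python 3.11.15 from a UMI threshold (the 99th percentile of the top 5000 barcodes divided by 10) and, for barcodes of at least 500 UMIs, from a profile that differed from empty droplets (FDR 0.01). Cells with under 200 genes or over 10% mitochondrial UMIs were dropped, and 90 to 163 doublets per mouse were removed by comparison with simulated doublets at a rate of 0.8% per 1000 cells. Clustering used 2000 variable genes, 10 principal components and Leiden communities (leidenalg 0.10.2) at resolution 0.8, with the 51 complement genes held out. Mononuclear phagocytes were clustered a second time, a step chosen after seeing the data. Clusters were named from marker lists, and 1222 cells stayed unnamed. Among these were clusters of 138, 117, 108 and 76 cells that scored highest as alveolar macrophages. They are not in the levels, shares or tests of that gate. The same holds for unnamed clusters of 56, 32 and 27 cells that scored highest as fibroblasts. The deposited UMI counts were summed by mouse and gate. A mouse with under 5 cells in a gate was left out, which removed IgG1 replicate 3 from AT2 cells.

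Sums were tested in R 4.3.3 with edgeR 4.0.16 (TMM scaling, filterByExpr, quasi-likelihood F test, Benjamini-Hochberg), and a standard error was derived as the absolute log2 fold change over the root of its F statistic. Shares of cells were compared by two-sided exact permutation over mice. Statistics were tested on simulated data. Alternatives were DESeq2 1.42.0, RLE size factors, no low-count filter, a replicate block, the UMI threshold alone, doublets kept, free RNA subtracted, marker-based gates, resolution 1.6, thinning to 1000 UMIs and each mouse left out. Leaving out the Mmp12-led clusters, or the AT2-gate cells without more AT2 than airway secretory marker UMIs, was chosen after seeing the data. The rule for named genes took the 8 genes in every gate, other complement genes that were called (none was) and for each of the 8 the 3 genes with the highest correlation over classes. Other complement genes are named outside this rule, after their values were seen. The 8 genes and all lists were chosen with earlier results of these data known. The number of mice, and for rare gates the number of cells, limits the precision. Intervals and limits for counts of 0 cover counting error only.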

Additional observations from a re-analysis of the deposited data

How the results depend on the processing

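Of 503 alternative values for 34 effects of the 8 genes, 49 had the other sign and 2 passed the test that the reported value did not. Both were without a low-count filter: C3 in interstitial macrophages (adjusted p = 0.00259) and C5ar1 in classical monocytes (adjusted p = 0.014), by edgeR. The cause of these changes was not tested. Adjusted p over the alternatives ran from 0.00259 to nearly 1 for C3 in interstitial macrophages and from 0.014 to nearly 1 for C5ar1 in classical monocytes. C3 in interstitial macrophages, classical monocytes and neutrophils, C3ar1 in interstitial macrophages, C5ar1 in classical monocytes, Cfp in neutrophils, Hc in AT2 cells and C1qc, C3, C5ar1 and Hc in all cells had the same sign under every alternative that gave a value. So did C1qa and C1qc in alveolar macrophages, but without the Mmp12-led clusters neither passed the low-count filter, and no value was fitted.

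With marker-based gates the log2 fold changes in interstitial macrophages were -0.080 for C1qa, -0.011 for C1qb, -0.10 for C1qc, -0.31 for C5ar1 and -0.55 for Cfp. C1qb in alveolar macrophages was -0.65, C5ar1 in nonclassical monocytes 0.25 and C3 in AT2 cells 0.998, the last with 1 IgG1 mouse against 3. The difference in the interstitial share of cells was 0.0855 percentage points, and the levels were 1366 CPM for Hc in AT2 cells and, in interstitial macrophages, 156 CPM for C3ar1 and 108 CPM for Cfp. At resolution 1.6, where IgG1 replicate 3 was left out of the interstitial macrophages, C1qa was -0.078, C1qb -0.032 and Cfp -0.59 in that gate, C3 in fibroblasts -0.023, and C5ar1 0.13 and Cfp -0.017 in nonclassical monocytes. The difference in the interstitial share was then 0.122 percentage points. With doublets kept, C3 was -0.020 and Cfp -0.44 in nonclassical monocytes, Cfp was -0.11 in interstitial macrophages, and 1 gene was called in endothelial cells. Without the Mmp12-led clusters, C1qb was -0.39, C3 -0.13, C3ar1 -0.84, C5ar1 0.0021 and Cfp 0.026 in alveolar macrophages. Without the cells that did not hold more AT2 than airway secretory marker UMIs, C3 in AT2 cells was 2.06. C5ar1 in nonclassical monocytes was 0.049 without a filter and 0.28 with the UMI threshold alone. That threshold left 28 interstitial macrophages, which could not be fitted. After thinning, the difference in the share of cells with a UMI was -2.91 percentage points for C3 in fibroblasts and 2.11, -5.20 and 2.57 for C1qa, C1qb and Cfp in interstitial macrophages.

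Counts of called genes, 0 in every gate as reported, were with DESeq2 1 in alveolar macrophages, 2 in interstitial macrophages, 1 in classical monocytes, 9 in fibroblasts, 32 in AT2 cells, 26 in endothelial cells and 38 in all cells. Without a filter they were 3 in alveolar macrophages, 56 in interstitial macrophages, 51 in classical monocytes, 48 in nonclassical monocytes, 35 in neutrophils, 243 in fibroblasts, 301 in AT2 cells and 199 in endothelial cells. The UMI threshold alone gave 5 in neutrophils and 10 in endothelial cells, and subtraction of the estimated free RNA gave 3 in fibroblasts. The replicate numbers did not pair the mice: the correlation of same-numbered deviations in all cells was 0.39, 0.63 and -0.33, and no gate had every pair above 0.1. With the replicate block, 2 genes were called in interstitial macrophages, 1 in neutrophils, 3 in fibroblasts, 38 in AT2 cells and 1 in endothelial cells, and C3 in fibroblasts was -0.0072. No other sign changed under the block.

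Leaving out 1 mouse at a time, the counts of called genes ranged from 0 to 1 in alveolar macrophages, nonclassical monocytes, neutrophils and endothelial cells, 0 to 5 in classical monocytes, and 0 to 46 in fibroblasts and 0 to 24 in AT2 cells, the highest in both without ipilimumab replicate 3. Log2 fold changes in all cells ranged from -0.029 to 0.32 for C1qa, -0.059 to 0.42 for C1qb, -0.051 to 0.70 for C3ar1 and -0.24 to 0.16 for Cfp. In alveolar macrophages they ranged from -0.25 to 0.45 for C3, -0.31 to 1.20 for C3ar1, -0.44 to 0.053 for C5ar1 and -0.22 to 0.049 for Cfp. C3 ranged from -0.39 to 0.39 in fibroblasts and -1.24 to 2.05 in AT2 cells, where leaving out either IgG1 mouse left 1 against 3, which is assumed to vary like the ipilimumab mice. C5ar1 ranged from -0.27 to 0.19 in nonclassical monocytes and -0.079 to 0.060 in neutrophils, and Cfp from -0.48 to 0.10 in classical and -0.20 to 0.44 in nonclassical monocytes. The interstitial minus alveolar difference ranged from -0.41 to 0.88 for C1qb, 0.94 to 2.23 for C3 and -0.31 to 0.86 for C3ar1, and the difference in alveolar macrophage share from -1.35 to 2.72 percentage points.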
